A study of Mus musculus with 12 samples.

Results

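The genes described here are 33 mouse genes that mark the trophoblast of the placenta and the decidua, the maternal tissue it invades, measured in fetal membranes. They were taken by symbol from a table of 48795 annotated genes, and 33 of 33 symbols matched 1 row each. They comprise 2 placental lactogens, 3 proliferins and proliferin-related genes, 9 other prolactin-family genes of trophoblast, 3 prolactin-family genes of decidua, 2 trophoblast-specific proteins, 6 pregnancy-specific glycoproteins, 4 placental cathepsins, 3 syncytiotrophoblast genes and Plac1. Membranes were dissected, snap-frozen and ground before RNA extraction, and libraries were made with a stranded mRNA kit. The groups were E18 DKO (Double knockout of biglycan and decorin, strain C3H and C57BL/6, embryonic day 18), E18 WT (Wild-type, strain C3H, embryonic day 18), E12 DKO (the same double knockout and strains, embryonic day 12) and E12 WT (Wild-type, strain C3H, embryonic day 12), with 3 libraries each. Biglycan and decorin are small leucine-rich proteoglycans of the collagen matrix, and the series presents their loss as a model of preterm birth. Strain differed with genotype, so their effects cannot be told apart. No label says whether libraries of a group came from separate litters or animals, so p-values measure the spread between these samples, which may be technical.

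Mouse trophoblast forms giant cells, a spongiotrophoblast layer and a labyrinth, where syncytiotrophoblast and sinusoidal giant cells border maternal blood. These cells secrete hormones of an expanded prolactin gene family, immunoglobulin-like pregnancy-specific glycoproteins and a rodent set of cathepsin proteases, and decidual cells secrete prolactin-family members of their own. Fetal membranes, the amnion and visceral yolk sac, lie next to these tissues and are not known as a main source of these transcripts.

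Most of the genes lie in 3 clusters of the GRCm38 build. On chromosome 13, 15 of the 17 prolactin-family genes lie within 1.06 Mb (chr13:27094212-28151611). The 2 Tpbp genes and the 4 cathepsins lie within 0.641 Mb (chr13:60901297-61541839), and the 6 Psg genes within 0.476 Mb of chromosome 7 (chr7:18345422-18821607). Tpbpa and Tpbpb, which encode short proteins related to a cathepsin propeptide, and Ctsj, which encodes a placental cathepsin, are neighbours in the second cluster. Their promoters (RefSeq, GRCm38.p6, minus strand, 250 bases before to 50 after the start) are shown because these neighbours took different shares of the signal in different libraries. Capitals mark an AP-1 motif (TGANTCA, searched on both strands). The windows are chr13:60941887-60942186 for Tpbpa, chr13:60904798-60905097 for Tpbpb and chr13:61005876-61006175 for Ctsj.
Tpbpa: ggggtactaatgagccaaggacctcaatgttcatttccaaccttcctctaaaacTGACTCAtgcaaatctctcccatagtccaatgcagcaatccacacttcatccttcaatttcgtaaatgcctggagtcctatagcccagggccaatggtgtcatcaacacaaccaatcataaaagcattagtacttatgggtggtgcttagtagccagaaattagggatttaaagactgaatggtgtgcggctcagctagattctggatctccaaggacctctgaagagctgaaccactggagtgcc
Tpbpb: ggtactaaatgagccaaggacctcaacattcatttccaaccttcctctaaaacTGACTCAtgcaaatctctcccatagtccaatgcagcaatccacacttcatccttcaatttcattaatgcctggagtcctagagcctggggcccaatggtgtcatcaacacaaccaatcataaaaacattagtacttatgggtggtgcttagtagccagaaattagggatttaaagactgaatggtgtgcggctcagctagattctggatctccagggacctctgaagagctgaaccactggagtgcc
Ctsj: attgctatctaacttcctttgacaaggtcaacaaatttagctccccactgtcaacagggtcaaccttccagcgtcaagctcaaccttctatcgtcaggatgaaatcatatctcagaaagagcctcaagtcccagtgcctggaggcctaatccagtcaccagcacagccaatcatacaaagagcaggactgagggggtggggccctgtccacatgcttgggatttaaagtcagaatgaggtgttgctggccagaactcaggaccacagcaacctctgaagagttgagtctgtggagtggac
In alignments, 289 of 300 bases (96.3%) were identical between Tpbpa and Tpbpb, and 62.3% between Tpbpa and Ctsj. Over the whole list, 28 genes had 33 promoters in the RefSeq table. The AP-1 motif was in 11 of these (33.3%), against 7.79% of all 32544 promoters. The GATA motif AGATAA was in 10 (30.3%), against 11.2% of all promoters. The GCM motif ATGCGGGT, the site bound by Gcm1, was in 0 of them and in 0.258% of all promoters. Promoters of 1 family are related by descent, and a matching window is a description only.

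Total counts ranged from 19967593 to 33065424 per library, and the 33 genes together took between 0.00028% and 0.201% of them. Some libraries stood apart over the whole series. Library E12 WT 1 had been set apart by earlier results from these data, and mitochondrial genes took 21.2% of the counts of E12 WT 3, against 3.58 to 7.78% in the others. Embryonic globins (Hbb-y, Hbb-bh1 and Hba-x) summed to 18.4, 17.3 and 19 CPM in E18 DKO libraries, against 6770, 6050 and 7710 CPM across those labelled E18 WT. CPM are counts scaled to 1000000 per library, with library sizes normalised by TMM (trimmed mean of M values). These globins summed to 698, 2960 and 1900 CPM in E12 DKO libraries and to 1010, 13300 and 10600 CPM in E12 WT libraries, so the libraries labelled E18 WT were nearer to the E12 range. Their stage is therefore in doubt, and every comparison below that uses them carries that doubt. Of the tissue's own markers, 10 visceral yolk sac endoderm genes summed to between 53900 and 166000 CPM and 5 amnion epithelium genes to between 2.99 and 456 CPM.

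In each group, 1 library held several times more of the trophoblast and decidual transcripts, summed together, than the other 2. Their summed level was 3.08, 117 and 6.54 CPM in E18 DKO libraries 1 to 3, against 43.1, 21.5 and 1770 CPM across those labelled E18 WT. It was 5.06, 15.9 and 60.7 CPM in E12 DKO libraries, against 5.81, 221 and 8.42 CPM in E12 WT libraries. The highest library exceeded the second of its group 17.9-fold in E18 DKO, 41.1-fold in those labelled E18 WT, 3.82-fold in E12 DKO and 26.2-fold in E12 WT. The high libraries were E18 DKO 2, E18 WT 3, E12 DKO 3 and E12 WT 2, so both genotypes and both labelled stages had such a library. Taken singly, the gene groups were also highest in these libraries, except Psg genes at E12 and syncytiotrophoblast genes in E18 DKO. Psg genes were instead highest in E12 DKO 2 and E12 WT 1. The lead over the second library ranged from 1.07-fold to 187-fold. The lowest was for decidual prolactin-family genes in E12 DKO, and the highest for cathepsins in E12 WT. In E12 WT the decidual lead was 1.18-fold. In bulk tissue, fewer cells of a type and less RNA per cell cannot be told apart.

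Library E18 WT 3 was the highest of all 12 for 26 of the 32 genes detected. For 25 of these the next library held more than 3 counts, and the fold over it ranged from 1.43 to 76.0, with a median of 14.2. The next library was E18 DKO 2 for 11 of the 26 and E12 WT 2 for 9. Library E12 WT 2 was itself the highest for Prl3d1, Ctsr, Gcm1, Syna and Plac1, and E18 DKO 2 for Prl3a1. At or above 5 CPM there were 0, 8 and 0 genes in E18 DKO libraries 1 to 3, against 1, 1 and 25 in the libraries labelled E18 WT. At E12 there were 0, 0 and 4 in DKO libraries, against 0, 8 and 0 in WT libraries.

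**Figure D1:**
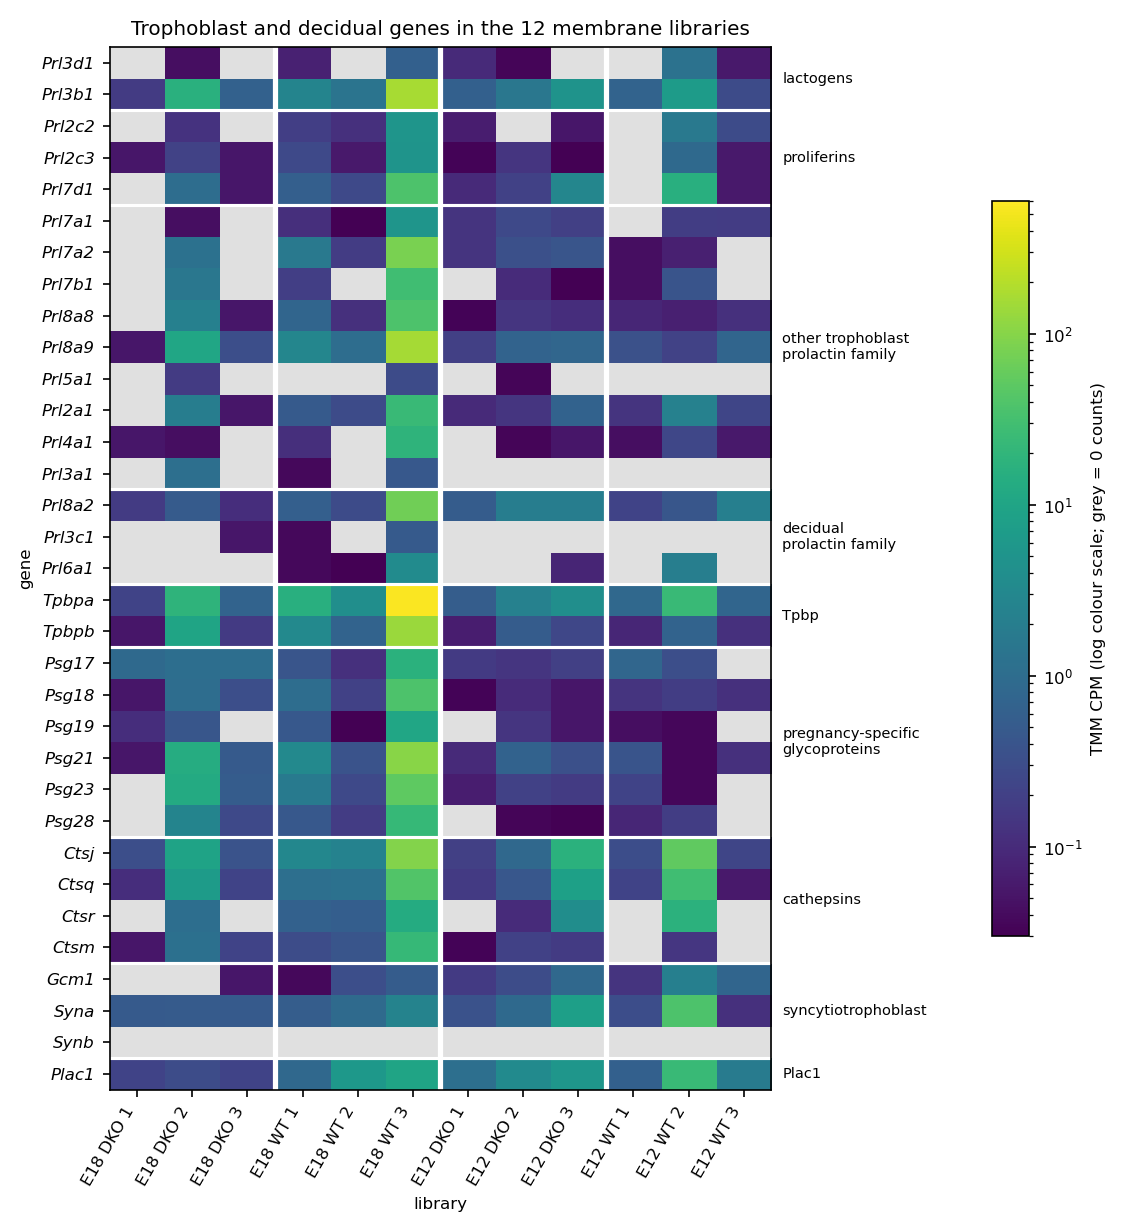
Level of each of the 33 genes (rows, by gene group) in each of the 12 libraries (columns), as TMM CPM on a logarithmic colour scale, with grey for 0 counts. E18 WT 3 is the brightest column with 25 genes at or above 5 CPM, followed by E18 DKO 2 and E12 WT 2 with 8 each, and Synb is grey throughout.

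The placental lactogens are hormones of trophoblast giant cells that act through the prolactin receptor. Prl3b1 (placental lactogen II, chr13:27242430-27249679) was at 0.165, 16.4 and 0.654 CPM in E18 DKO libraries 1 to 3, against 2.64, 1.38 and 165 CPM across those labelled E18 WT. At E12, Prl3b1 was at 0.624, 1.53 and 4.93 CPM in DKO libraries, against 0.705, 6.78 and 0.294 CPM in WT libraries. In each group the library with the highest summed level was also the highest for Prl3b1, and DKO and WT overlapped at both stages. Prl3d1, which encodes placental lactogen I, an earlier hormone of the same cells, was not tested for its low counts and reached at most 1.25 CPM, in E12 WT 2. It shared 55.6% of its 50-base stretches with other genes, so its level is uncertain. Prlr, the receptor, is not a trophoblast marker and followed another order. Prlr was at 4.51, 3.07 and 26.1 CPM in E18 DKO libraries 1 to 3, against 42.2, 56.1 and 27.6 CPM across those labelled E18 WT. It was lower in all 3 E18 DKO libraries, with a log2 fold change of -1.91 ± 0.68 (SE, adjusted p = 0.0409, edgeR's quasi-likelihood test). Against E12 DKO, at 65.6, 69.1 and 70.5 CPM, Prlr was also lower in E18 DKO (log2 fold change -2.61 ± 0.69, SE, adjusted p = 0.0104).

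The proliferins Prl2c2 and Prl2c3 promote, and the proliferin-related protein Prl7d1 restrains, blood vessel growth in cell and animal assays. Prl7d1 was at 0, 1.02 and 0.0545 CPM in E18 DKO libraries 1 to 3, against 0.603, 0.264 and 37.6 CPM across those labelled E18 WT. At E12, Prl7d1 was at 0.0986, 0.203 and 2.8 CPM in DKO libraries, against 0, 15.6 and 0.0589 CPM in WT libraries. Prl7d1 stood out in E18 WT 3 and E12 WT 2, with smaller peaks in E12 DKO 3 and E18 DKO 2. Prl2c2 was at 0, 0.128 and 0 CPM in E18 DKO libraries 1 to 3, against 0.188, 0.117 and 5.17 CPM across those labelled E18 WT. At E12, Prl2c2 was at 0.0657, 0 and 0.0554 CPM in DKO libraries, against 0, 1.64 and 0.294 CPM in WT libraries. Prl2c2 shared 83.3% of its 50-base stretches with other genes, so reads that align to several places were not counted for it and its level is uncertain. Prl2c3 was at 0.055, 0.213 and 0.0545 CPM in E18 DKO libraries 1 to 3, against 0.264, 0.0586 and 5.13 CPM across those labelled E18 WT. At E12, Prl2c3 was at 0.0329, 0.136 and 0.0277 CPM in DKO libraries, against 0, 0.892 and 0.0589 CPM in WT libraries. Of Prl2c3, 814 of 1357 such stretches were shared, mainly with Prl2c2. Neither Prl2c2 nor Prl2c3 had enough counts to be tested, and in all 3 genes DKO and WT overlapped at both stages.

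Of the 9 other prolactin-family genes of trophoblast, 7 reached 5 CPM in at least 1 library, in 6 of them only in E18 WT 3. The exception was Prl8a9, which encodes a prolactin-like protein of the spongiotrophoblast and giant cells. Prl8a9 was at 0.055, 10.4 and 0.327 CPM in E18 DKO libraries 1 to 3, against 2.86, 1.03 and 161 CPM across those labelled E18 WT. At E12, Prl8a9 was at 0.197, 0.712 and 0.775 CPM in DKO libraries, against 0.352, 0.214 and 0.765 CPM in WT libraries. Prl8a9 had its second peak in E18 DKO 2, and unlike Prl3b1 it had no peak in E12 WT 2, where it lay within the range of the other E12 libraries. Prl7a2 was at 0, 1.19 and 0 CPM in E18 DKO libraries 1 to 3, against 1.62, 0.176 and 82 CPM across those labelled E18 WT. At E12, Prl7a2 was at 0.131, 0.339 and 0.415 CPM in DKO libraries, against 0.044, 0.0714 and 0 CPM in WT libraries. Prl7a2 was higher in all 3 E12 DKO libraries than in every E12 WT library, on 29 counts in E12 DKO and 3 in E12 WT, and the groups overlapped at E18. Prl8a8 was at 0, 2.26 and 0.0545 CPM in E18 DKO libraries 1 to 3, against 0.754, 0.117 and 38.1 CPM across those labelled E18 WT. At E12, Prl8a8 was at 0.0329, 0.136 and 0.111 CPM in DKO libraries, against 0.0881, 0.0714 and 0.118 CPM in WT libraries. Prl8a8 was low in all E12 libraries and peaked in E18 WT 3 and E18 DKO 2.

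Prl7b1, a product of invading trophoblast and giant cells, followed the same order. Prl7b1 was at 0, 1.54 and 0 CPM in E18 DKO libraries 1 to 3, against 0.188, 0 and 28.6 CPM across those labelled E18 WT. At E12, Prl7b1 was at 0, 0.102 and 0.0277 CPM in DKO libraries, against 0.044, 0.392 and 0 CPM in WT libraries. At 0 counts, as in 2 of the 3 E18 DKO libraries, a library still allows 3 counts, which is 0.165 CPM in E18 DKO 1 and 0.163 CPM in E18 DKO 3. Prl2a1 was at 0, 2 and 0.0545 CPM in E18 DKO libraries 1 to 3, against 0.49, 0.293 and 24.6 CPM across those labelled E18 WT. At E12, Prl2a1 was at 0.0986, 0.136 and 0.665 CPM in DKO libraries, against 0.132, 2.35 and 0.235 CPM in WT libraries. Prl2a1, another placental member, had a smaller peak in E12 WT 2 as well. Prl7a1 was at 0, 0.0426 and 0 CPM in E18 DKO libraries 1 to 3, against 0.113, 0.0293 and 5.33 CPM across those labelled E18 WT. At E12, Prl7a1 was at 0.131, 0.271 and 0.194 CPM in DKO libraries, against 0, 0.178 and 0.177 CPM in WT libraries. Outside E18 WT 3, Prl7a1 was at most 0.271 CPM. Prl4a1 was at 0.055, 0.0426 and 0 CPM in E18 DKO libraries 1 to 3, against 0.113, 0 and 19 CPM across those labelled E18 WT. At E12, Prl4a1 was at 0, 0.0339 and 0.0554 CPM in DKO libraries, against 0.044, 0.25 and 0.0589 CPM in WT libraries. Prl4a1, whose protein binds uterine natural killer cells in rat, was therefore nearly restricted to 1 of the 12 libraries. Prl5a1 and Prl3a1 stayed at or below 1.11 CPM, and Prl3a1 alone was highest in E18 DKO 2. In these 9 genes DKO and WT overlapped at both stages, except Prl7a2 at E12.

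Among the prolactin-family genes of decidua, Prl8a2 encodes decidual prolactin-related protein, a product of the antimesometrial decidua. Prl8a2 (chr13:27345683-27354216) was at 0.165, 0.512 and 0.109 CPM in E18 DKO libraries 1 to 3, against 0.603, 0.293 and 71.4 CPM across those labelled E18 WT. At E12, Prl8a2 was at 0.526, 1.97 and 2.02 CPM in DKO libraries, against 0.22, 0.428 and 2.12 CPM in WT libraries. Library E18 WT 3 stood alone, the 3 E18 DKO libraries lay within the range of the other 2 libraries labelled E18 WT or below it, and the groups overlapped at both stages. All 3 E18 DKO libraries were below all 3 E12 DKO libraries. Prl3c1 reached 0.492 CPM and Prl6a1 3.53 CPM at most, both in E18 WT 3, with 0 counts in 9 and 7 libraries. Of Prl6a1, 13.2% of exon bases overlapped another annotated gene.

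Tpbpa marks the ectoplacental cone and the spongiotrophoblast made from it, and had the highest level per kilobase of all 33 genes in E18 WT 3, at 405 CPM per kilobase. Tpbpa (chr13:60938692-60941935) was at 0.22, 19 and 0.708 CPM in E18 DKO libraries 1 to 3, against 15.5, 3.98 and 556 CPM across those labelled E18 WT. At E12, Tpbpa was at 0.559, 2.3 and 4.07 CPM in DKO libraries, against 0.837, 24.9 and 0.765 CPM in WT libraries. Tpbpa was high in all 3 libraries labelled E18 WT relative to E18 DKO 1 and 3, but E18 DKO 2 lay above 2 of them. Tpbpb was at 0.055, 9.68 and 0.163 CPM in E18 DKO libraries 1 to 3, against 3.13, 0.703 and 137 CPM across those labelled E18 WT. At E12, Tpbpb was at 0.0657, 0.542 and 0.249 CPM in DKO libraries, against 0.0881, 0.714 and 0.118 CPM in WT libraries. Tpbpb had no peak of that size in E12 WT 2, where Tpbpa was at 24.9 CPM. DKO and WT overlapped for both genes at both stages.

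The pregnancy-specific glycoproteins are secreted by spongiotrophoblast and giant cells. Psg21 was at 0.055, 14 and 0.49 CPM in E18 DKO libraries 1 to 3, against 3.2, 0.381 and 102 CPM across those labelled E18 WT. At E12, Psg21 was at 0.0986, 0.678 and 0.332 CPM in DKO libraries, against 0.396, 0.0357 and 0.118 CPM in WT libraries. Psg21 had peaks in E18 WT 3 and E18 DKO 2 and was at most 0.678 CPM in the E12 libraries. Psg23 was at 0, 12.6 and 0.545 CPM in E18 DKO libraries 1 to 3, against 1.81, 0.264 and 50.6 CPM across those labelled E18 WT. At E12, Psg23 was at 0.0657, 0.203 and 0.166 CPM in DKO libraries, against 0.22, 0.0357 and 0 CPM in WT libraries. Psg23 shared 37.2% and Psg21 26.9% of 50-base stretches with other genes, mostly with each other, so their split is uncertain. In E18 WT 3 Psg21 was at 29.7 and Psg23 at 23.2 CPM per kilobase, and in E18 DKO 2 Psg21 was at 4.1 and Psg23 at 5.79 CPM per kilobase. Psg18 was at 0.055, 1.02 and 0.327 CPM in E18 DKO libraries 1 to 3, against 1.02, 0.205 and 37.1 CPM across those labelled E18 WT. At E12, Psg18 was at 0.0329, 0.102 and 0.0554 CPM in DKO libraries, against 0.132, 0.178 and 0.118 CPM in WT libraries. Psg18 overlapped at E18, and at E12 all 3 DKO libraries were lower than every WT library, on at most 5 counts in any of the 6.

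The other 3 Psg genes had the same leading library. Psg28 was at 0, 2.6 and 0.272 CPM in E18 DKO libraries 1 to 3, against 0.452, 0.176 and 23.1 CPM across those labelled E18 WT. At E12, Psg28 was at 0, 0.0339 and 0.0277 CPM in DKO libraries, against 0.0881, 0.178 and 0 CPM in WT libraries. Psg28 shared 31.3% of its 50-base stretches with other genes. Psg17 was at 0.879, 1.07 and 1.09 CPM in E18 DKO libraries 1 to 3, against 0.415, 0.117 and 16.9 CPM across those labelled E18 WT. At E12, Psg17 was at 0.164, 0.136 and 0.194 CPM in DKO libraries, against 0.793, 0.321 and 0 CPM in WT libraries. Psg17 differed from its relatives in being at a similar level in all 3 E18 DKO libraries, each above all 3 E12 DKO libraries. Psg19 was at 0.11, 0.426 and 0 CPM in E18 DKO libraries 1 to 3, against 0.452, 0.0293 and 10.5 CPM across those labelled E18 WT. At E12, Psg19 was at 0, 0.136 and 0.0554 CPM in DKO libraries, against 0.044, 0.0357 and 0 CPM in WT libraries. In these 3 genes DKO and WT overlapped at both stages.

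The placental cathepsins are lysosomal proteases of trophoblast, and Ctsq marks the sinusoidal giant cells of the labyrinth. Ctsj was at 0.33, 9.47 and 0.381 CPM in E18 DKO libraries 1 to 3, against 2.9, 2.43 and 94.1 CPM across those labelled E18 WT. At E12, Ctsj was at 0.197, 0.847 and 16.8 CPM in DKO libraries, against 0.308, 52.5 and 0.235 CPM in WT libraries. Ctsj peaked in the same 4 libraries as the summed level, and E12 WT 2 was second only to E18 WT 3. Ctsq was at 0.11, 6.87 and 0.218 CPM in E18 DKO libraries 1 to 3, against 1.13, 1.2 and 40.5 CPM across those labelled E18 WT. At E12, Ctsq was at 0.164, 0.441 and 8.23 CPM in DKO libraries, against 0.22, 28.3 and 0.0589 CPM in WT libraries. Ctsq was also second highest in E12 WT 2. Ctsr was at 0, 1.07 and 0 CPM in E18 DKO libraries 1 to 3, against 0.641, 0.586 and 13.3 CPM across those labelled E18 WT. At E12, Ctsr was at 0, 0.102 and 3.85 CPM in DKO libraries, against 0, 17.7 and 0 CPM in WT libraries. Ctsr was highest in E12 WT 2 and had 0 counts in 5 libraries. Ctsm was at 0.055, 1.15 and 0.218 CPM in E18 DKO libraries 1 to 3, against 0.302, 0.41 and 22.5 CPM across those labelled E18 WT. At E12, Ctsm was at 0.0329, 0.203 and 0.166 CPM in DKO libraries, against 0, 0.143 and 0 CPM in WT libraries. Ctsm lacked the E12 peaks that the other 3 cathepsins had in E12 DKO 3 and E12 WT 2. It shared 22.5% of its 50-base stretches with other genes, mostly a predicted neighbour. DKO and WT overlapped for all 4 cathepsins at both stages.

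Syncytiotrophoblast forms when labyrinth trophoblast fuses, driven by the transcription factor Gcm1 and the retroviral envelope proteins syncytin A and syncytin B. Syna (syncytin A, chr5:134558146-134560171) was at 0.495, 0.512 and 0.49 CPM in E18 DKO libraries 1 to 3, against 0.565, 0.938 and 2.54 CPM across those labelled E18 WT. At E12, Syna was at 0.362, 0.881 and 7.95 CPM in DKO libraries, against 0.308, 37.5 and 0.118 CPM in WT libraries. Syna was highest in E12 WT 2 and E12 DKO 3, and in E18 WT 3 it was below both. All 3 E18 DKO libraries, which lay close together, were below all 3 libraries labelled E18 WT. Gcm1 was at 0, 0 and 0.0545 CPM in E18 DKO libraries 1 to 3, against 0.0377, 0.322 and 0.533 CPM across those labelled E18 WT. At E12, Gcm1 was at 0.164, 0.305 and 0.859 CPM in DKO libraries, against 0.132, 2.18 and 0.765 CPM in WT libraries. Gcm1 was at 1 count in all over the E18 DKO group, below all 3 E12 DKO libraries, and overlapped between DKO and WT at both stages. Synb had 0 counts in all 12 libraries. It shared 75.9% of its 50-base stretches with other genes, 74.1% with Gm27179 (chr14:69508632-69512549), which also had 0 counts in all 12, and reads aligned to several places were not counted. Reads from its unshared stretches could have been counted, so Synb was measured only in part and is not shown to be off.

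Plac1 is an X-linked gene of trophoblast whose loss in mice gives an enlarged, disordered placenta. Plac1 (chrX:53069995-53240111) was at 0.22, 0.299 and 0.218 CPM in E18 DKO libraries 1 to 3, against 0.867, 5.95 and 9.93 CPM across those labelled E18 WT. At E12, Plac1 was at 1.12, 3.39 and 5.48 CPM in DKO libraries, against 0.617, 24.3 and 1.88 CPM in WT libraries. All 3 E18 DKO libraries, at 0.299 CPM or less, were below each of the other 9, including E18 DKO 2, in which Tpbpa, Prl3b1 and Ctsj were high. At E12 DKO and WT overlapped.

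**Figure D2:**
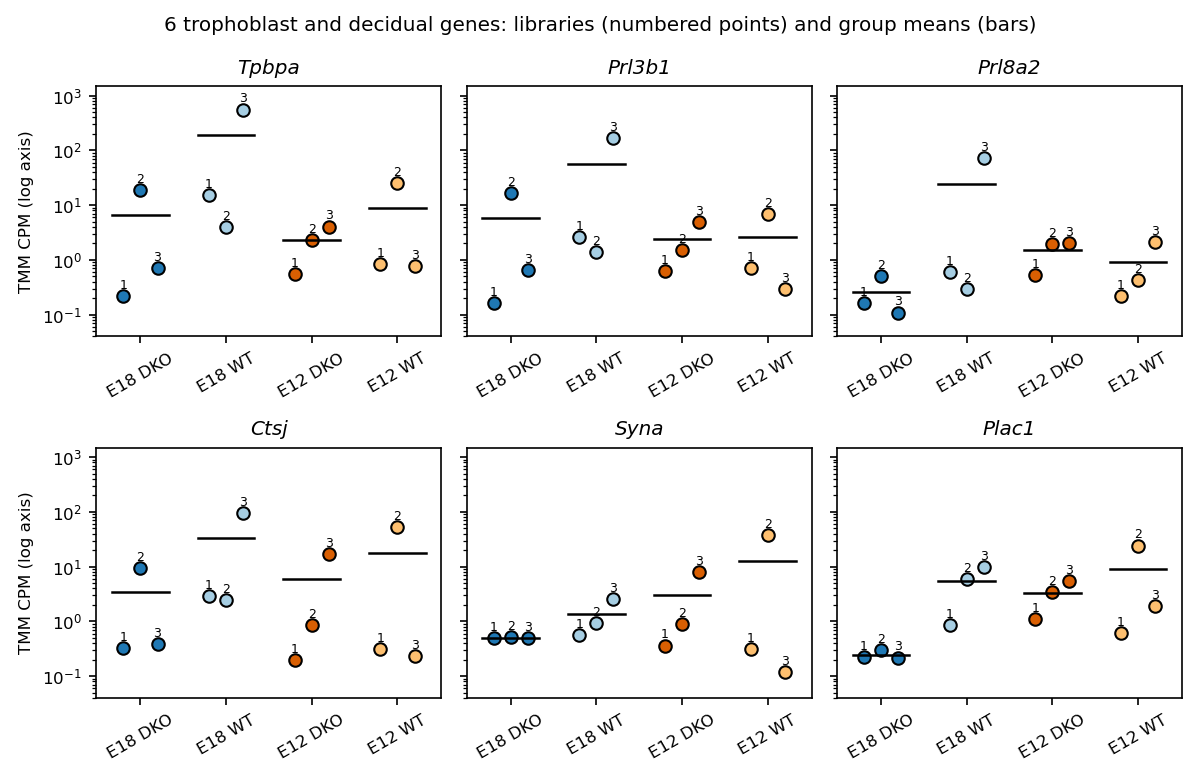
TMM CPM (log axis) of Tpbpa, Prl3b1, Prl8a2, Ctsj, Syna and Plac1 in the 4 groups, with 1 numbered point per library and a bar at the group mean. Library 3 of those labelled E18 WT sets the mean of its group for the first 4 genes, and the 3 E18 DKO points of Plac1 lie between 0.218 and 0.299 CPM.

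At E18, DKO membranes had lower fitted levels of the trophoblast and decidual genes than the libraries labelled E18 WT. The estimates depended on E18 WT 3 and E18 DKO 2, the high libraries of the groups compared, and the calls on other libraries too. Of the 33 genes, 23 passed the filter on low counts and were tested. At an adjusted p below 0.05 (edgeR's quasi-likelihood test, p-values adjusted over all 18153 tested genes by the Benjamini-Hochberg method), 4 of the 23 were lower and 0 higher. The call reached 42.3% of all tested genes, with 21.8% lower and 20.5% higher. The median log2 fold change was -3.8 over the 23 and -0.04 over all genes tested. Prl8a2 had a log2 fold change of -6.44 ± 1.95 (SE, adjusted p = 0.0209). Prl7a2 was at -6.02 ± 1.94 (adjusted p = 0.0276) and Psg18 at -4.71 ± 1.54 (adjusted p = 0.0293). Plac1 was at -4.47 ± 1.39 (adjusted p = 0.0238). All 23 log2 fold changes were negative. An unadjusted p under 0.05 was found for 9 of the 23, beside 9294 of all 18153 tested genes. The groups did not overlap for 2 of the 23, Syna and Plac1, both lower in DKO. Of all tested genes 29.1% lay apart in that direction, and 27.8% in the other, against 0 of the 23. Syna, with a log2 fold change of -1.42 ± 1.72, did not pass the test (adjusted p = 0.53). Tpbpa, at -4.83 ± 2.10 (adjusted p = 0.0837), and Prl3b1, at -3.28 ± 1.90 (adjusted p = 0.183), did not pass it either.

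Without E18 WT 3 but with E18 DKO 2 kept, 0 of the 23 were called, beside 6924 of all 18598 genes then tested. Of the 23 log2 fold changes, 13 were above 0 and the median was 0.44. Prl8a2 was then at -0.71 (adjusted p = 0.614), Prl7a2 at -1.09 (adjusted p = 0.566) and Psg18 at -0.34 (adjusted p = 0.799). Plac1 kept most of its size at -3.77 ± 1.45 (adjusted p = 0.0645). All 4 calls were also lost without E18 DKO 1 (adjusted p from 0.0726 to 0.0924) or without E18 DKO 3 (adjusted p from 0.0679 to 0.0864), with log2 fold changes from -6.20 to -4.21. Over all genes, the fit without E18 DKO 1 called 5833 of 18660 and that without E18 DKO 3 called 6716 of 18699. Without E18 DKO 2, the high library of its group, 9 of the 23 were called, beside 6833 of all 18685 genes then tested. Plac1 was not called (adjusted p = 0.0647, edgeR's quasi-likelihood test). Prl7a2, then at 0 counts in both E18 DKO libraries kept, had a fitted log2 fold change of -12.50. A fit added after seeing the data left out the highest library of each of the 4 groups and tested 13 of the genes. Of these, 12 had estimates below 0 and the median was -2.78. Tpbpa, Ctsj and Ctsq were called lower, beside calls for 4738 of all 18165 genes then tested. Some markers of other cell types were also high in E18 WT 3, whereas E18 DKO 2 did not stand apart in the sums of these lists. The 10 uterine natural killer cell genes summed to 1.48, 2.86 and 2.56 CPM in E18 DKO libraries, against 2.19, 1.14 and 32.8 CPM across those labelled E18 WT, with Gzma, Ncr1 and Klrb1c at 0 counts in E18 WT 3. The 5 amnion epithelium genes summed to 456, 361 and 283 CPM in E18 DKO libraries, against 45.8, 60.4 and 438 CPM across those labelled E18 WT. Of these 5, Gabrp (269 CPM) and Krt5 (166 CPM) set E18 WT 3 apart, whereas the E18 DKO sums were mostly Krt14, and 0 of the 5 were at 0 counts in E18 WT 3. Their part in the result was not tested.

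**Figure D3:**
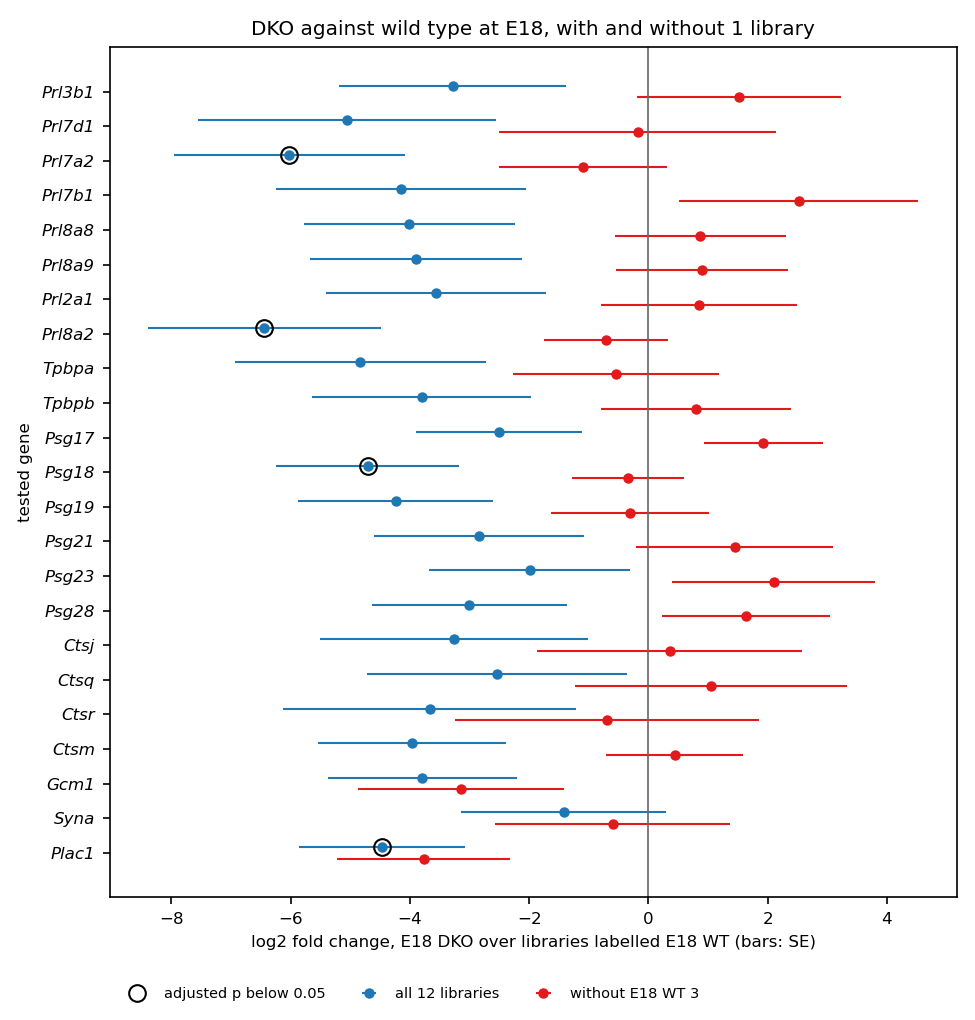
Log2 fold change of each of the 23 tested genes, E18 DKO over the libraries labelled E18 WT, with all 12 libraries (blue) and without E18 WT 3 (red). Points are edgeR estimates, bars are 1 standard error and rings mark an adjusted p below 0.05. All 23 blue points lie below 0, 13 of the 23 red points lie above it, and Plac1 moves least among the 4 ringed genes.

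At E12 no difference between DKO and WT was detected for these genes. Of the 23, 0 were called by edgeR's quasi-likelihood test, 0 had an unadjusted p under 0.05 and 0 were called by the DESeq2 Wald test, which gave an adjusted p for 7 of the 23. Of all 18153 tested genes 0.353% were called by edgeR's test, 0.0936% higher and 0.259% lower, and 2073 genes by the Wald test. An unadjusted p under 0.05 by edgeR's test was found for 4416 of the 18153. The median log2 fold change was -1.18 over the 23 and -0.08 over all genes. Estimates ran from -2.33 ± 2.16 for Prl7d1 to 2.65 ± 2.62 for Prl7a2, and the standard error was larger than the change for 17 of the 23. DKO libraries did not overlap WT for Prl7a2 (higher in DKO, beside 15.7% of all tested genes) and Psg18 (lower in DKO, beside 14.4%). On summed counts, Prl7a2 in E12 DKO was 6.82 times its level in E12 WT, with a 95% interval from 2.11 to 35.0 that covers counting error only. Without E12 WT 2, the high library, 19 of the 23 estimates were above 0, against 8 with it. Again 0 of the 23 were called, beside 179 of all 18681 genes then tested.

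The DKO effect at E18 minus that at E12 was called for 2 of the 23 genes, both negative. Of all tested genes 41.9% were called, 20.3% negative and 21.6% positive. They were Prl7a2, at -8.67 ± 3.07 on the log2 scale (SE, adjusted p = 0.0411, edgeR's quasi-likelihood test), and Prl8a2, at -7.20 ± 2.47 (adjusted p = 0.0360). The median was -2.89 over the 23 and 0.01 over all genes. The Prl7a2 value sets the E18 contrast against an E12 WT group with 3 counts in all. Without E18 WT 3 these values were -3.76 (adjusted p = 0.195) and -1.46 (adjusted p = 0.41). Prl7a2 lost its call without any 1 library except E18 DKO 2, E18 WT 1 or E18 WT 2, and Prl8a2 without any 1 except E12 DKO 1, E12 WT 3, E18 WT 1 or E18 WT 2. Without E18 DKO 2 the fitted Prl7a2 value was -15.14. Over these fits the adjusted p of Prl7a2 ran from 0.0181 to 0.195 and that of Prl8a2 from 0.0173 to 0.41.

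Between the DKO stages, 2 of the 23 genes were called, both lower at E18. Of all tested genes 46% were called, 22.8% lower and 23.2% higher. Gcm1 had a log2 fold change of -4.38 ± 1.54 (SE, adjusted p = 0.0366, edgeR's quasi-likelihood test). Its E18 DKO group held 1 count against 45 in E12 DKO, a ratio of 0.0355 with a 95% counting interval from 0.00088 to 0.208. Plac1 fell by 3.73 on the log2 scale (SE 1.37, adjusted p = 0.0436). The groups did not overlap for these 2 and for Prl8a2, all lower at E18 (beside 34.1% of all tested genes), and for Psg17, higher at E18 (beside 33.1%). Prl8a2, at -2.45 ± 1.79 (adjusted p = 0.279), and Psg17, at 2.58 ± 1.52 (adjusted p = 0.184), did not pass the test. The median log2 fold change was 1.51 over the 23 and -0.02 over all genes. All 6 Psg genes had positive estimates, such as 1.51 for Psg19 and 4.88 for Psg23 (adjusted p = 0.0751), and 0 of the 6 passed the test. Psg28 held 66 counts in E18 DKO and 2 in E12 DKO, a ratio of 52.8 with a 95% counting interval from 14.0 to 445 (adjusted p = 0.0779). Both calls were kept without E12 DKO 1 and lost without any other 1 of the 6 DKO libraries (adjusted p from 0.0525 to 0.12 for Gcm1 and from 0.0753 to 0.114 for Plac1). Without E18 DKO 3, which held its only E18 DKO count, Gcm1 was fitted at -6.58.

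The libraries labelled E18 WT set against E12 WT gave 0 calls among the 23. Of all tested genes 0.953% were called, 0.292% higher and 0.661% lower. The median log2 fold change was 4.76 over the 23 and -0.05 over all genes. An unadjusted p under 0.05 was found for 13 of the 23, beside 3292 of all 18153 tested genes. Prl7a2, Prl8a9, Psg18, Psg23 and Ctsm were higher in all 3 libraries labelled E18 WT than in every E12 WT library, and 0 of the 23 were lower in this sense. Of all tested genes 9.29% lay apart upward and 8.6% downward. Prl7a2 (adjusted p = 0.104) and Psg18, at 6.41 ± 1.73 (adjusted p = 0.109), came nearest. With 3 counts in E12 WT, Prl7a2 in those labelled E18 WT was 543 times its E12 WT level on summed counts, with a counting interval from 186 to 2640. The DESeq2 Wald test called 4, all higher (Psg18, Psg19, Psg21 and Psg23), beside 1223 of all 18153 genes. It gave no adjusted p for 16 of the 23. Without E18 WT 3 the median was -0.39 and 11 of the 23 were above 0. Again 0 of the 23 were called, beside 36 of all 18598 genes then tested. The 4 comparisons between groups share libraries, so their values are not independent.

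The make-up of the signal differed between the high libraries. Scaled by gene length, placental cathepsins took 14.1% of the summed CPM per kilobase in E18 DKO 2 and 8.27% in E18 WT 3, but 45.8% in E12 DKO 3 and 44.3% in E12 WT 2. The syncytiotrophoblast genes took 0.269% in E18 DKO 2 and 0.0994% in E18 WT 3, but 9.47% in E12 DKO 3 and 12.2% in E12 WT 2. Plac1 alone took 0.228% and 0.466% in that E18 pair of libraries, and 8.57% and 10.9% in the E12 pair. The Tpbp genes took 29.3% in E18 DKO 2, 39.2% in E18 WT 3, 7.23% in E12 DKO 3 and 12% in E12 WT 2. Psg genes took 13%, 5.74%, 0.685% and 0.211% in that order. In these 5 groups of genes the high libraries split by labelled stage rather than by genotype, with 1 library behind each value and no test. Per kilobase, Tpbpa (405), Tpbpb (193) and Prl3b1 (189 CPM per kilobase) led in E18 WT 3, and Prl3b1 (18.7), Tpbpa (13.9) and Tpbpb (13.7) in E18 DKO 2. In E12 DKO 3, Ctsj (13.2) led, followed by Prl3b1 (5.63), and in E12 WT 2 Ctsj (41.1) led, followed by Syna (18.5 CPM per kilobase).

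**Figure D4:**
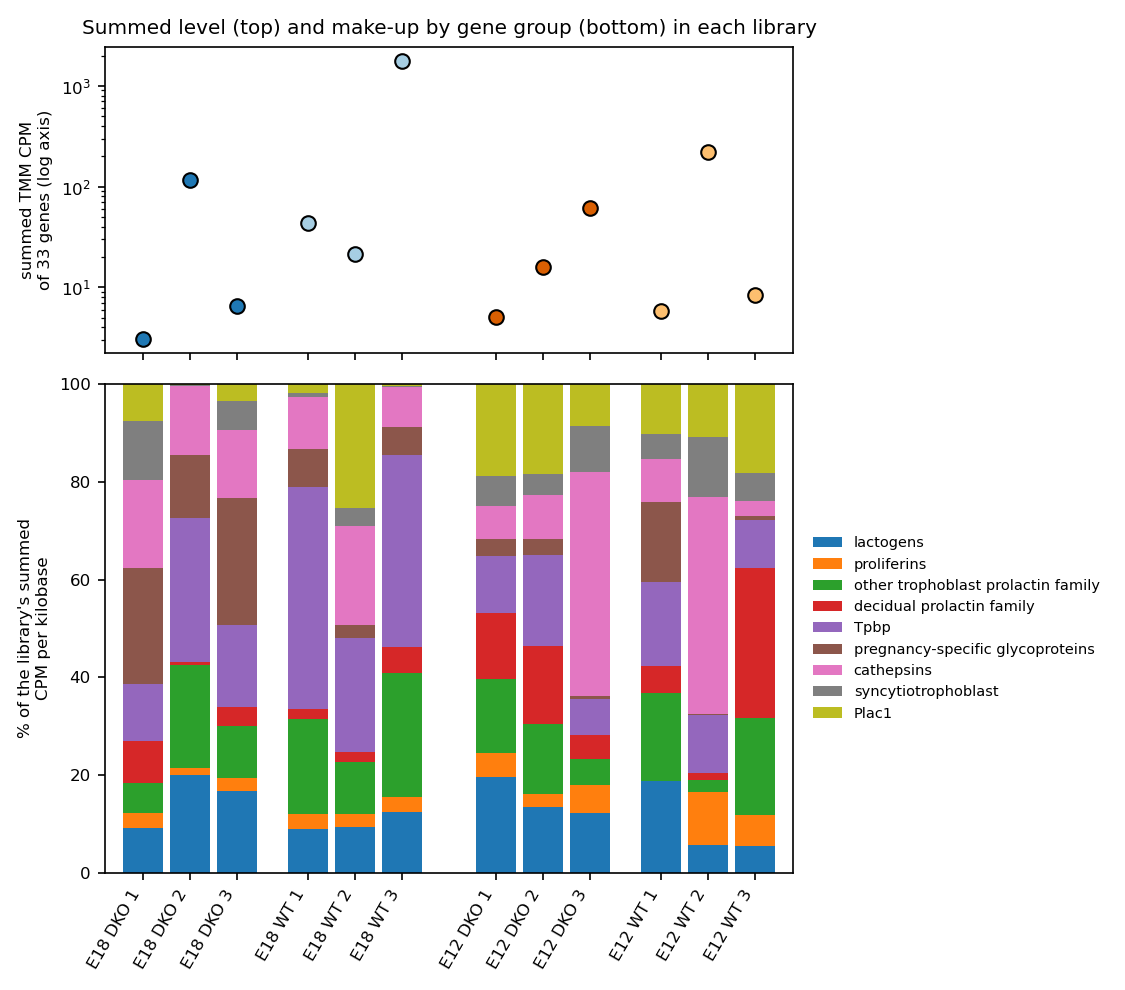
Summed TMM CPM of the 33 genes in each library (top, log axis) and the share of each gene group in the library's summed CPM per kilobase (bottom, percent). The top panel shows 1 high library per group, up to 1770 CPM in E18 WT 3, and in the bottom panel cathepsins (pink) fill 45.8% of E12 DKO 3 and 44.3% of E12 WT 2.

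Shares within a library do not depend on its summed level, so pairs of genes were also set against each other, in libraries with at least 20 counts for the pair. The pairs were chosen after the values had been seen, carry no test, and their exact 95% binomial intervals cover counting error only. Tpbpb made 33.7% (30.2 to 37.4) of the Tpbpa and Tpbpb counts in E18 DKO 2, against 16.8, 15.0 and 19.8% in the libraries labelled E18 WT. In E12 DKO 3 it made 5.77% (2.67 to 10.7), against 2.79% (1.71 to 4.28) in E12 WT 2, and in E12 DKO 2 it made 19.0% (11.3 to 29.1). Thus the 2 neighbours with near-identical promoters did not keep a fixed ratio.

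Prl8a2, of decidua, made 4.67% (2.44 to 8.01) of the counts of Prl8a2 and Prl8a9, of trophoblast, in E18 DKO 2, against 17.4, 22.2 and 30.7% in the libraries labelled E18 WT. It made 72.7, 73.4 and 72.3% in E12 DKO libraries 1 to 3, and 73.5% (58.9 to 85.1) in E12 WT 3. The 3 E12 DKO libraries kept this share although their summed levels ran from 5.06 to 60.7 CPM. Ctsj made 33.2% (29.7 to 36.9) of the Ctsj and Tpbpa counts in E18 DKO 2, against 15.7, 37.9 and 14.5% in the libraries labelled E18 WT. It made 80.5% (77.5 to 83.3) in E12 DKO 3, against 67.9% (65.8 to 69.8) in E12 WT 2, and between 26.1 and 26.9% in the other E12 libraries with enough counts. Syna made 5.13% of the Syna and Ctsj counts in E18 DKO 2, against 16.3, 27.8 and 2.63% in the libraries labelled E18 WT. It made 51.0% (36.6 to 65.2) in E12 DKO 2 and 32.1% in E12 DKO 3, against 41.7% in E12 WT 2. Prl3d1 made 0.26% (0.00658 to 1.44) of the lactogen counts in E18 DKO 2, against 0.371% (0.208 to 0.611) in E18 WT 3. In the other libraries labelled E18 WT it made 2.78% (0.338 to 9.68) and 0 of 47. At E12 it made 13.6% (2.91 to 34.9) in E12 DKO 1, 2.17% (0.055 to 11.5) in E12 DKO 2 and 0 of 178 in E12 DKO 3, which allows up to 2.05%, against 15.6% (11.1 to 21.0) in E12 WT 2. The E12 DKO libraries thus spanned low and high shares.

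**Figure D5:**
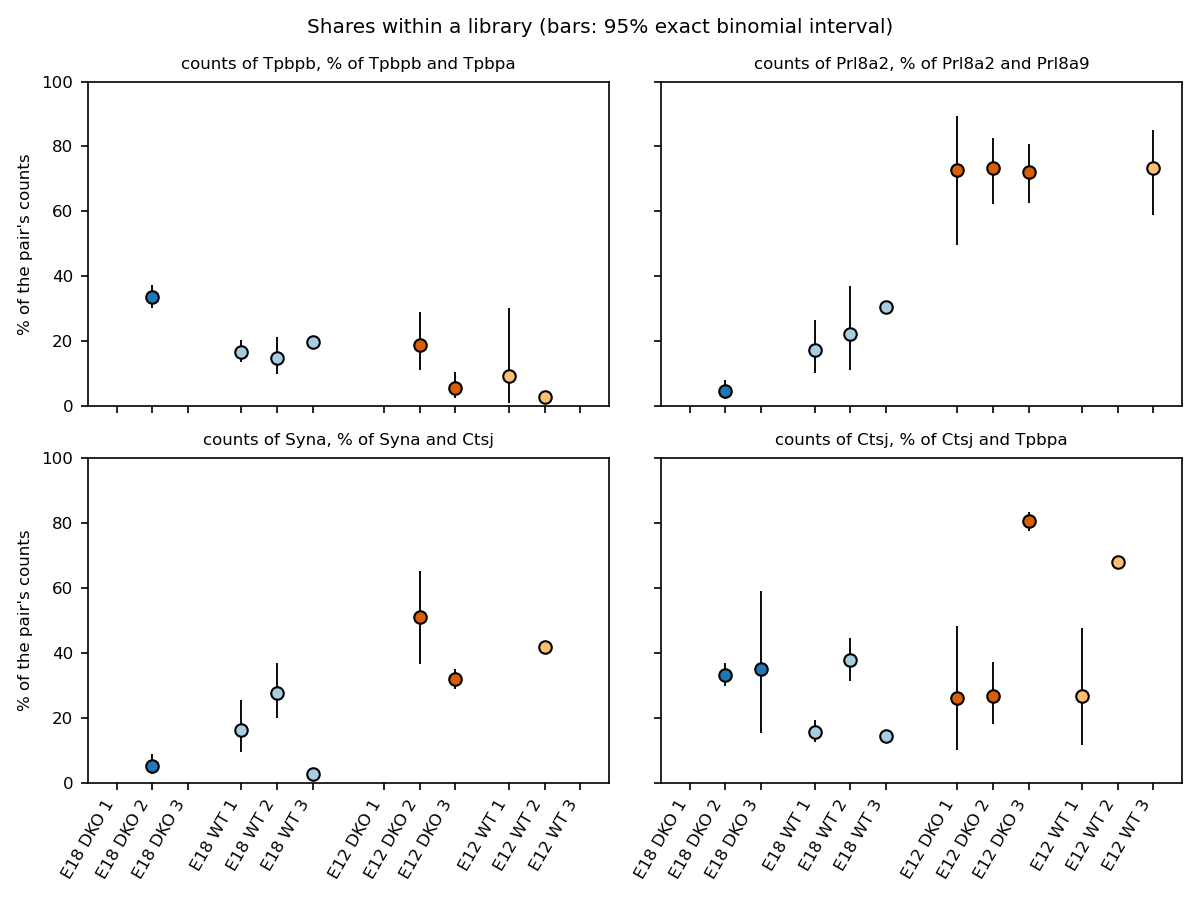
Share of the first gene in the counts of 4 gene pairs, in percent, for each library with at least 20 counts of the pair, with exact 95% binomial intervals as bars. Prl8a2 makes 72.3 to 73.5% of its pair in the E12 libraries shown and 4.67 to 30.7% in those labelled E18, and the Ctsj share of Ctsj and Tpbpa is highest in E12 DKO 3 (80.5%) and E12 WT 2 (67.9%).

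Psg, Ceacam and cathepsin genes outside the list were, summed, highest in E18 DKO 2 and E18 WT 3 within the E18 groups, and varied in order at E12. The other Psg and Ceacam genes (15 found) summed to 1.37, 54.5 and 1.69 CPM in E18 DKO libraries, against 11.2, 2.4 and 455 CPM across those labelled E18 WT. At E12 they summed to 0.493, 2.41 and 2.27 CPM in DKO libraries, against 2.99, 8.96 and 0.412 CPM in WT libraries. Of the 10 tested, Psg16 alone was called, higher in E18 DKO than in E12 DKO (log2 fold change 6.48 ± 2.4, SE, adjusted p = 0.0450, edgeR's quasi-likelihood test), beside 23.2% higher among all tested genes. Psg16 held 13, 469 and 11 counts in E18 DKO libraries 1 to 3, against 0, 7 and 0 in E12 DKO libraries. Between genotypes 0 of the 10 were called, beside 42.3% of all tested genes at E18 and 0.353% at E12. Cts3, the most abundant of 5 further cathepsins, was at 0.055, 4.44 and 0.218 CPM in E18 DKO libraries, against 1.81, 0.205 and 99.4 CPM across those labelled E18 WT (log2 fold change -4.39 ± 1.81, adjusted p = 0.0716). At E12, Cts3 was at 0.0657, 0.169 and 0.222 CPM in DKO libraries, against 0.044, 0 and 0.118 CPM in WT libraries, with no counts in E12 WT 2. Prl2b1, a further prolactin-family gene of trophoblast, was at 0.275, 0.981 and 0.163 CPM in E18 DKO libraries, against 3.77, 1.64 and 108 CPM across those labelled E18 WT, without overlap (log2 fold change -6.25 ± 2.36, adjusted p = 0.0518).

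Among 18 transcription factors and imprinted genes that regulate trophoblast, the sum was 5670, 7310 and 8910 CPM in E18 DKO libraries, against 4980, 5160 and 3740 CPM across those labelled E18 WT, and was led by Peg10, which yolk sac also expresses. Some of the less abundant ones peaked in libraries that were high for the hormones, and others did not. Tfap2c, a factor of trophoblast progenitors, was at 0, 0.426 and 0 CPM in E18 DKO libraries, against 1.88, 1.32 and 6.94 CPM across those labelled E18 WT. At E12, Tfap2c was at 0.624, 1.15 and 4.13 CPM in DKO libraries, against 0.308, 28.6 and 1.06 CPM in WT libraries. Dlx3, which acts in labyrinth formation, likewise reached 4.51 CPM in E18 WT 3, 4.35 CPM in E12 DKO 3 and 25.2 CPM in E12 WT 2. Esrrb was instead at 0.165, 0.554 and 6.54 CPM in E18 DKO libraries, against 9.72, 17.2 and 6.57 CPM across those labelled E18 WT. At E12, Esrrb was at 12.7, 14.1 and 9.97 CPM in DKO libraries, against 3.96, 8.49 and 9.77 CPM in WT libraries. Cdx2 was the highest of its group in E18 DKO 2 (5.8 CPM) but the lowest of its group in E18 WT 3 (3.53 CPM). Of 16 tested, 4 were lower in E18 DKO (Hand1, Eomes, Gata3 and Phlda2) and 2 higher (Tead4 and Fosl1), beside 21.8% lower and 20.5% higher among all tested genes. Gata3 was at 0.165, 0.171 and 0.218 CPM in E18 DKO libraries, against 1.73, 1.85 and 5.66 CPM across those labelled E18 WT (log2 fold change -4.03 ± 0.76, SE, adjusted p = 0.00202, edgeR's quasi-likelihood test). Eomes, a factor of trophoblast stem cells, was at 0, 0.0853 and 0.109 CPM in E18 DKO libraries, against 0.678, 1.52 and 0.862 CPM across those labelled E18 WT (-3.86 ± 0.68, adjusted p = 0.00137). For both genes all 3 E18 DKO libraries lay below all 3 labelled E18 WT, so E18 WT 3 was not alone in these differences. Both genes were also lower in E18 DKO than in E12 DKO, with log2 fold changes of -3.44 ± 0.76 for Gata3 (adjusted p = 0.00396) and -4.10 ± 0.68 for Eomes (adjusted p = 0.000856).

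Of 10 tested decidual stroma markers, 4 were higher in E18 DKO than in the libraries labelled E18 WT (Hand2, Wnt4, Bmp8a and Cryab) and 4 were lower (Hoxa10, Hoxa11, Wnt6 and Alpl), beside 20.5% higher and 21.8% lower among all tested genes. The list summed to 571, 530 and 564 CPM in E18 DKO libraries, against 144, 150 and 311 CPM across those labelled E18 WT, and many of its genes are also expressed in fetal tissue. Hoxa10, a factor of uterine stroma and of posterior mesoderm, was at 0, 0.0853 and 0 CPM in E18 DKO libraries, against 9.35, 5.68 and 8 CPM across those labelled E18 WT (adjusted p = 0.00027, edgeR's quasi-likelihood test). On 2 counts in E18 DKO its ratio to those labelled E18 WT was 0.00445, with a 95% counting interval from 0.000537 to 0.0161. Pgr, the progesterone receptor of decidua, was at 0, 0.128 and 0.109 CPM in E18 DKO libraries, against 0.264, 0.0586 and 0.944 CPM across those labelled E18 WT. The decidual stroma sum was highest in E18 WT 3 within its group, as Prl8a2 was, whereas in the E18 DKO group it was above that level in all 3 libraries while Prl8a2 was at most 0.512 CPM.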

How the data were processed

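RNA sequencing counts of 12 libraries were used. The submitters' processing notes name the trimmer Trimmomatic 0.36, the aligner STAR 2.4.2a, the counter featureCounts (Subread 1.5.0) and the build GRCm38. Per the file headers, the authors' deposited values are raw gene counts, not normalised, assigned to Ensembl release 86 with strand option 2 and without reads that align to several places. Copies that share sequence can therefore lose reads. Counts of 11 libraries matched 1 column each of the series table, and those of E12 DKO 1 were taken from that table. Columns labelled E18 WT are numbered 2 to 4 and titles 1 to 3, and were joined by identical counts.

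Genes were kept by filterByExpr (18153) and normalised with TMM in edgeR 4.0.16 (R 4.3.3). All libraries entered a single quasi-likelihood model with 4 group means, which leaves 8 residual degrees of freedom, and Benjamini-Hochberg adjusted p-values below 0.05 were called. A standard error (SE) is the size of a log2 fold change over the root of its F statistic. The procedure was tested on simulated data. Binomial intervals are exact (95%), and 3 counts bound a count of 0. Intervals and bounds cover counting error only. Alternatives were DESeq2 1.42.0 size factors and its Wald test, library size alone, other filters, the replicate number as a block, only the groups compared, each library left out, E12 WT 1 and E18 WT 3 left out together and, added after seeing the data, the 4 highest libraries left out. Shared 50-base stretches were counted over GENCODE M21 transcripts. Figures were drawn with matplotlib 3.10.9 (Python 3.11.15).

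The 33 genes, the other lists and the tests were chosen with earlier results of these data known. All 33 genes are accounted for. Values per library are given for those at 5 CPM or more in at least 1 library or called in any comparison, and by range for the rest. Of the other lists, up to 4 genes with the lowest adjusted p and the most abundant one could be named. Prl2b1, Cts3, Pgr, Tfap2c, Dlx3, Esrrb, Cdx2, Gabrp, Krt5 and Krt14 were named after their values were seen where they fall outside that rule.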

Additional observations from a re-analysis of the deposited data

Results flagged for a closer look

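The DKO effect differed between the labelled stages for 2 of the 23 tested genes by the test of the difference itself in edgeR's quasi-likelihood model. That test called 41.9% of all tested genes. For Prl7a2 the E18 effect minus the E12 effect was -8.67 on the log2 scale (SE 3.07, adjusted p = 0.0411), with effects of -6.02 at E18 and 2.65 at E12. For Prl8a2 it was -7.20 (SE 2.47, adjusted p = 0.0360), with effects of -6.44 at E18 and 0.76 at E12. With 1 library left out, Prl7a2 kept its call in 3 of 12 fits and Prl8a2 in 4 of 12. Both values shrank without library 3 of those labelled E18 WT, to -3.76 (adjusted p = 0.195) and -1.46 (adjusted p = 0.41), and neither was then called. The summed level of all 33 genes in that library was 1770 CPM, against 43.1 and 21.5 CPM in the other libraries labelled E18 WT, and its part in the difference was not tested beyond leaving it out.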

How the results depend on the processing

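The number of genes called for E18 DKO against the libraries labelled E18 WT was 4 of 23, and became 7 with library size alone, 9 without a low-count filter (of 32 then tested, and 6 of the 23), 5 with the DESeq2 Wald test (of the 7 with an adjusted p, keeping Psg18 and Plac1 of the 4), 2 with only the groups compared, 1 without both E12 WT 1 and E18 WT 3, and between 0 and 9 when 1 library was left out. The difference of the DKO effects had 2, and became 0 without both E12 WT 1 and E18 WT 3. With 1 library left out the count ran between 0 and 2. It was also 0 with the DESeq2 Wald test, which gave no adjusted p for either gene. Without the 4 highest libraries, 3 of the 13 genes then tested were called, Tpbpa, Ctsj and Ctsq, all negative. Prl7a2 was not tested in that fit, and Prl8a2 was at -1.76 (adjusted p = 0.45, edgeR's quasi-likelihood test). E18 DKO against E12 DKO had 2, and became 1 with the 1 CPM filter, which drops Gcm1, 7 without both E12 WT 1 and E18 WT 3, 3 with only the groups compared or with DESeq2, 0 without the 4 highest libraries, and between 0 and 2 with 1 library left out. The libraries labelled E18 WT against E12 WT had 0 and became 4 with the DESeq2 Wald test. DKO against WT at E12 stayed at 0 in all alternatives run. Over all genes, calls at E18, for the difference and between the DKO stages were fewest without the 4 highest libraries. They were most numerous without both E12 WT 1 and E18 WT 3. They ran from 4738 to 9159 at E18 (7678 in the main fit) and from 5349 to 8881 for the difference (7600 in the main fit). Between the DKO stages they ran from 5168 to 10371 (8349 in the main fit). Fits without the 4 highest libraries called Tpbpa, Ctsj and Ctsq lower at E18 and kept 0 of the 4 calls, with Plac1 at -3.94 (adjusted p = 0.0527). Prl8a2 was then at -1.65 (adjusted p = 0.372, edgeR's quasi-likelihood test). Only 13 of the 23 genes were tested in these fits, and Prl7a2, Psg18 and Gcm1 were not among them, so their calls could not be kept.

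The estimate for Syna in the difference of effects was 0.62 and not called, and changed sign to -5.18 without E12 WT 2, where it was called (adjusted p = 0.0311), with a range up to 2.92 over the libraries left out. Where not explained by fewer genes or libraries, the cause was not tested. Libraries with the same title number correlated between -0.18 and 0.29, and those with different numbers between -0.37 and 0.23. The same numbers thus showed no clear pairing, but with 3 libraries a group these values cannot exclude it. Pairing by the column numbers of the libraries labelled E18 WT was not tested. With the replicate number as a block, 2 genes were called at E18 (Gcm1 and, of the 4, Plac1), 0 for the difference and 2 between the DKO stages. Library size alone moved the median log2 fold change of all genes to -0.41 at E18, 0.22 at E12, -0.64 for the difference, -0.37 between the DKO stages and 0.26 between the WT stages. Over all genes, the E12 count of 64 ran from 0 with only the groups compared to 2073 with DESeq2 and 3753 without both E12 WT 1 and E18 WT 3, and the WT stage count of 173 ran from 11 without the 4 highest libraries to 1223 and 1028 in the same order, and to 1684 with 1 library left out.

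Of 1567 single-gene estimates under these alternatives, those without the 4 highest libraries aside, 1358 kept direction and side of the threshold, 35 gained a call and 52 lost one. Another 121 changed sign without being called either way, and Syna is the remaining 1. Low counts limit most values at E12, where 0 counts in a library still allows 0.0831 to 0.177 CPM.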

Other observations

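Granzymes of uterine natural killer cells were seen mainly in library 3 of those labelled E18 WT, at 8.49 CPM for Gzmg, 8.21 CPM for Gzmf and 7.22 CPM for Gzmd, while Gzma, Ncr1 and Klrb1c had 0 counts there. These genes were named after their values had been seen. The 10 genes of that list summed to 0.887, 7.42 and 1.58 CPM in E12 DKO libraries, against 0.705, 1.93 and 4.53 CPM in E12 WT libraries.

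Psg21 made 42.5% of the Psg21 and Tpbpa counts in E18 DKO 2 and 40.9% in E18 DKO 3, against 17.1, 8.72 and 15.5% in the libraries labelled E18 WT. It made 15.0, 22.7 and 7.55% in E12 DKO libraries, against 32.1% in E12 WT 1 and 0.143% in E12 WT 2. Ctsm made 10.8% of the Ctsm and Ctsj counts in E18 DKO 2, against 9.41, 14.4 and 19.3% in the libraries labelled E18 WT. It made 19.4% (7.45 to 37.5) in E12 DKO 2 and 0.977% (0.359 to 2.11) in E12 DKO 3, against 0.271% (0.0739 to 0.693) in E12 WT 2, so low shares were seen in the high E12 libraries but not in E12 DKO 2. These pairs were chosen after the values had been seen and carry no test.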
